A study of Mus musculus with 9 samples.

Results

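Genes that move sterols across the membranes of absorptive cells, store them as esters or sense them were followed in RNA-seq of intestinal epithelial cells (IECs) from the mouse colon. They were 9, chosen by symbol, namely Npc1l1, Abcg5, Abcg8, Soat2, Abca1, Scarb1, Lipa, Nr1h2 and Nr1h3, and all 9 were among the 46095 symbols of the count table. Mice lacking Smad4, a mediator of TGF-β signalling, in the intestinal epithelium gave 4 libraries (Smad4-KO), and mice lacking both Smad4 and the histone methyltransferase Setd2 there gave 5 (DDKO). Both deletions were made with Villin-Cre on a C57BL/6J background, so that the control group carried the Smad4 deletion too and no mouse was wild type for Smad4. All mice received the same treatment, which was azoxymethane (AOM, a colon carcinogen, 10 mg/kg at 8 weeks of age) with 2% dextran sodium sulphate (DSS, which injures the colonic epithelium) in the drinking water, and cells were collected at 10 days. The cells were released from the colon with EDTA and no sorting step is described, so that a library could hold other cells of the mucosa. The comparison asked which genes differed once Setd2 was lost on top of Smad4.

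In an absorptive cell, Npc1l1 takes up cholesterol and plant sterols from the gut lumen, and the half-transporters Abcg5 and Abcg8 pair to pump sterols back out. Soat2 esterifies cholesterol for storage and for chylomicrons, Lipa splits cholesteryl esters in lysosomes, Abca1 loads cholesterol onto apolipoprotein A-I at the basolateral side, and Scarb1 is a receptor for high-density lipoprotein. Nr1h3 and Nr1h2 encode the liver X receptors LXRα and LXRβ, nuclear receptors that bind oxysterols and switch on Abca1, Abcg5 and Abcg8. Dietary sterol uptake through Npc1l1 is known as a function of the small intestine more than of the colon.

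The libraries held 12487129 to 17120202 counts each. Setd2 ran from 99.0 to 120 CPM (counts scaled by library total and edgeR's TMM factor) in the Smad4-KO libraries and from 53.8 to 86.9 in the DDKO libraries, with a log2 fold change of -0.77 (SE 0.14) and an adjusted p of 0.00756 in edgeR's quasi-likelihood test. Smad4 was deleted in both groups and averaged 64.1 ± 19 CPM (SD, n = 4) and 70.2 ± 34.3 CPM (SD, n = 5). Counts of Y-linked genes were found in replicates 1, 2 and 5 of the DDKO group only, at 3857 or more per library against 28 or fewer in each of the other 6, so that values without those 3 libraries are given where a result moved with them. The epithelial markers fixed for the check were alike in the groups, with a summed level of 13200 to 15200 CPM against 12400 to 14900 CPM, and 0 of 9 passed the edgeR test (1 at an unadjusted p under 0.05, 1 by DESeq2 and 1 by limma-voom). Of the colonic markers reported, Hoxb13 was lower, at 135 to 220 CPM in the Smad4-KO group and 70.1 to 148 CPM in the DDKO group, which overlapped (log2 fold change -0.78, edgeR adjusted p = 0.0264). Car1, Aqp8, Fxyd4, Scnn1b and Scnn1g did not pass, with log2 fold changes of 0.07, -0.31, 0.30, -0.72 and 0.15.

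A pair of upstream sequences is shown because they belong to the genes with the widest change and because Abcg5 and Abcg8 share theirs. Both come from RefSeq on GRCm38.p6, whose windows from 250 bases before to 50 bases after a start covered 7 of the 9 genes. The first lies between the starts of Abcg5 (chr17, position 84683011, minus strand) and Abcg8 (position 84683121, plus strand), which are read in opposite directions from 109 bases, and is printed on the plus strand at chr17:84683012-84683120. The second is the stretch of 250 bases before the RefSeq start of Npc1l1 at chr11:6230246-6230495, printed on the minus strand, in the direction of the gene. Capitals mark GATA boxes (AGATAA, here as its reverse complement TTATCT) in the first, and in the second a nuclear receptor half-site (AGGTCA, here TGACCT) followed by an HNF1 half-site (GTTAAT, here ATTAAC).
Abcg5-Abcg8 interval: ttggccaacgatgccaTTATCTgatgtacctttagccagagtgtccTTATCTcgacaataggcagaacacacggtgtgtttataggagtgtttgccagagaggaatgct
Npc1l1 upstream: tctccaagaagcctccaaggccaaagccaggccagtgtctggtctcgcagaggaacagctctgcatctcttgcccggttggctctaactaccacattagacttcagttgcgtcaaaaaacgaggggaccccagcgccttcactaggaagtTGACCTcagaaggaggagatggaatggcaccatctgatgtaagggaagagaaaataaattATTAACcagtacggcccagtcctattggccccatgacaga

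The GATA boxes of the shared interval began 93 and 63 bases before the start of Abcg8, and the overlapping windows of 300 bases of both genes held 3 matches each. Such a box was present on either strand in 11.2% of all 32851 promoter windows, the AGGTCA half-site in 16.3% and the GTTAAT half-site in 7.1%. In Npc1l1 they began 100 and 40 bases before the start. The DR4 element that LXR binds, AGGTCA repeated in the same direction with 4 bases between, was in the windows of none of the 7 genes and in 0.0152% of all windows. The letters searched for NR5A2 (CAAGGTCA, which contains AGGTCA, 1.56% of all windows), HNF4 (CAAAGTCCA, 0.475%), SREBP (TCACCCCAC, 0.551%) and the lysosomal E-box (TCACGTGA, 0.974%) were not in them either. The GC box GGGCGG, present in 35.7% of all windows, was found in the windows of Abca1 (2 matches) and Lipa (1 match). Only exact letters were searched, so a site that differs by 1 base was missed. The longer motifs are rare in all windows, and their absence here says little about which factors bind. These matches describe the printed letters and were not tested for binding.

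Of the 9 genes, 5 were higher in the DDKO libraries (Npc1l1, Abcg5, Abcg8, Soat2 and Lipa), 1 was lower (Nr1h2) and 3 did not pass an adjusted p of 0.05 in edgeR's quasi-likelihood test (Abca1, Scarb1 and Nr1h3). All 9 passed the filter on low counts. Across all 14593 genes tested, 13.3% passed, 6.76% higher and 6.54% lower. The median log2 fold change was 0.98 over the 9 genes and 0.00 over all genes tested. The groups did not overlap in the 5 genes that were higher and in Nr1h2, against 8.34% of all tested genes without overlap in the higher direction and 8.87% in the lower one. Because these are bulk libraries, more cells that express a gene and more RNA per cell cannot be told apart.

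**Figure D1:**
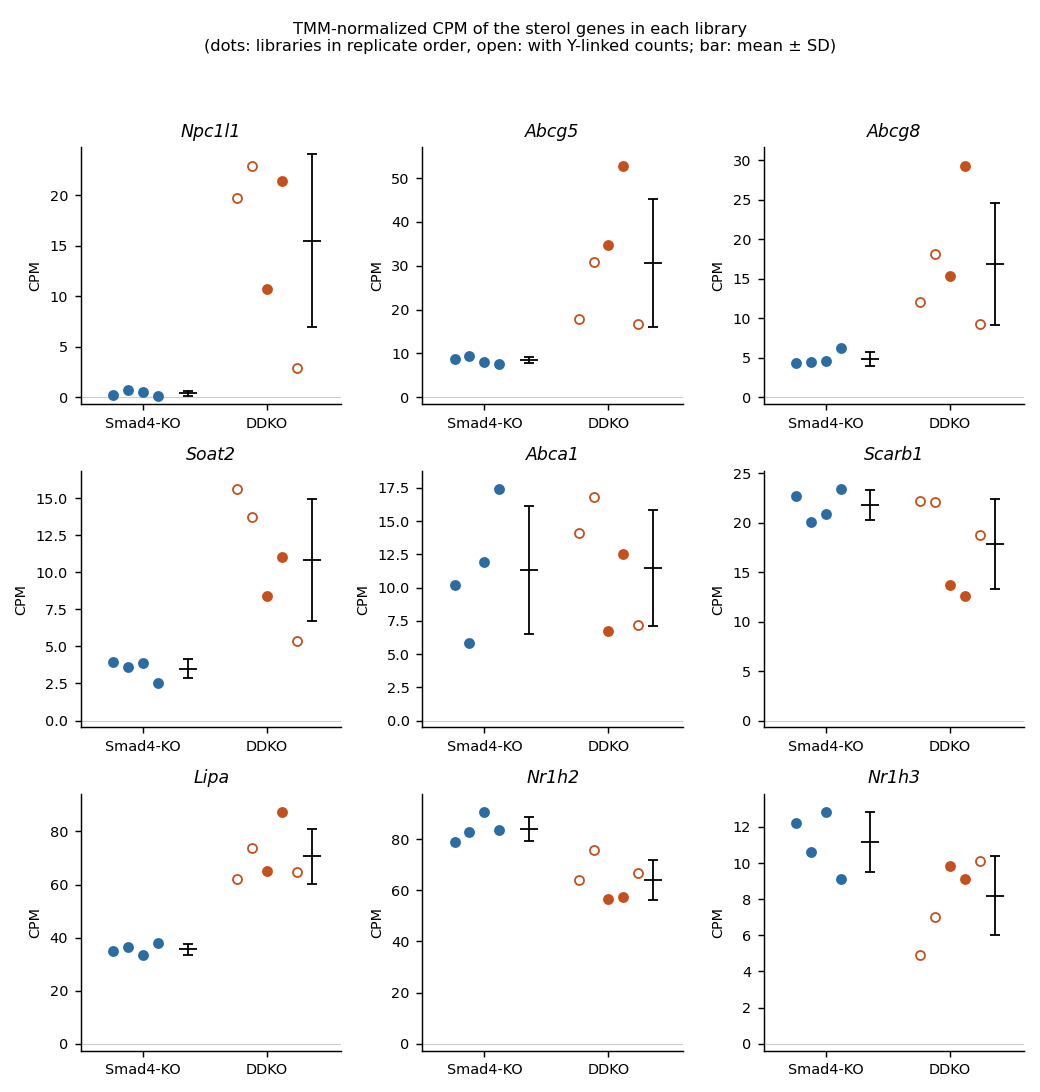
TMM-scaled CPM (y axis, linear, a separate scale per gene) of each of the 9 genes in the 4 Smad4-KO libraries (blue) and the 5 DDKO libraries (orange), with dots in replicate order, open dots for the 3 libraries with Y-linked counts, and mean ± SD as a bar. The orange dots of Npc1l1, Abcg5, Abcg8, Soat2 and Lipa all lie above the blue ones, those of Nr1h2 all lie below, and those of Abca1, Scarb1 and Nr1h3 overlap with them.

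Npc1l1, the uptake transporter, was near the limit of counting in the control group and measurable in every DDKO library. Its gene lies on chr11 from 6211013 to 6230143 (GRCm38, minus strand). Replicates 1 to 4 of the Smad4-KO group held 4, 12, 8 and 1 counts, which was 0.256, 0.712, 0.49 and 0.0793 CPM. Replicates 1 to 5 of the DDKO group held 308, 322, 153, 272 and 37 counts, which was 19.7, 22.9, 10.7, 21.4 and 2.86 CPM. The lowest of these, replicate 5, was still above every control library, and the other 4 were well apart from it. The group means were 0.384 ± 0.276 CPM (SD, n = 4) and 15.5 ± 8.5 CPM (SD, n = 5), and edgeR gave a log2 fold change of 5.24 (SE 0.68, 95% interval 3.74 to 6.74, adjusted p = 0.00126). With so few control counts the size of this fold depends on them. None of the 50-base windows of the Npc1l1 transcript occurred in another annotated gene.

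The efflux partners Abcg5 and Abcg8 rose side by side. Abcg5 (chr17:84658234-84683011, minus strand) stood at 8.84, 9.43, 8.09 and 7.69 CPM in the Smad4-KO replicates and at 17.9, 30.8, 34.8, 52.8 and 16.8 CPM in the DDKO replicates. The control libraries were close together, whereas the others were spread over a wide range that began above them. Its log2 fold change was 1.84 (SE 0.32, 95% interval 1.15 to 2.54, edgeR adjusted p = 0.00508). Abcg8 (chr17:84676302-84700333, plus strand) stood at 4.29, 4.45, 4.6 and 6.18 CPM and at 12.1, 18.2, 15.4, 29.3 and 9.29 CPM. Replicate 4 was the highest and replicate 5 the lowest of the DDKO group for both genes. The log2 fold change of Abcg8 was 1.79 (SE 0.31, 95% interval 1.11 to 2.47, edgeR adjusted p = 0.00514). A second annotated Abcg8 start at position 84676302 lies inside Abcg5, and the genes share 82 exonic bases on opposite strands, 3.02% of the exonic length of Abcg5 and 2.19% of that of Abcg8, where reads counted without strand could not be assigned.

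Soat2, the sterol acyltransferase of absorptive cells and hepatocytes, lies on chr15 from 102150526 to 102163469 (plus strand). Of its 50-base transcript windows, 0.755% also occurred in other genes. It was measured at 3.97, 3.62, 3.86 and 2.54 CPM in the Smad4-KO replicates and at 15.6, 13.7, 8.38, 11 and 5.34 CPM in the DDKO replicates. Every library of the second group was above every library of the first, replicate 5 by the least. The mean was 3.5 ± 0.657 CPM in the first (SD, n = 4) and 10.8 ± 4.1 CPM in the second (SD, n = 5). Its log2 fold change was 1.62 (SE 0.30, 95% interval 0.96 to 2.28, edgeR adjusted p = 0.00718). Its paralog Soat1, the broadly expressed acyltransferase, averaged 75.5 ± 12.9 CPM in the Smad4-KO group (SD, n = 4) and 53.1 ± 14.3 CPM in the DDKO group (SD, n = 5). Its log2 fold change of -0.51 (SE 0.19) did not pass (edgeR adjusted p = 0.105).

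Lipa, the lysosomal acid lipase, had the smallest standard error of the genes that rose. It lies on chr19 from 34492318 to 34527474 (minus strand). Its level was 34.9, 36.5, 33.3 and 38.0 CPM in the Smad4-KO replicates and 62.2, 73.8, 65.3, 87.2 and 64.6 CPM in the DDKO replicates. The gap between the groups was wider than the whole range of the control group. The log2 fold change was 0.98 (SE 0.11, 95% interval 0.74 to 1.23), which is 1.98-fold, with an edgeR adjusted p of 0.000561.

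Abca1 and Scarb1, which exchange cholesterol with lipoproteins, did not pass the test. Abca1 (chr4:53030787-53159895, minus strand) was at 10.2, 5.81, 11.9 and 17.4 CPM in the Smad4-KO replicates and at 14.1, 16.8, 6.77, 12.5 and 7.2 CPM in the DDKO replicates. The groups overlapped almost fully, with a log2 fold change of 0.03 (SE 0.34, 95% interval -0.71 to 0.77, edgeR adjusted p = 0.969), and the sign turned in 6 of 18 alternative settings. Scarb1 (chr5:125277087-125341094, minus strand) was at 22.7, 20.1, 20.9 and 23.4 CPM and at 22.2, 22.1, 13.7, 12.6 and 18.8 CPM. Replicates 3 and 4, the DDKO libraries without Y-linked counts, were the lowest of all 9 libraries. Over all libraries the log2 fold change of Scarb1 was -0.28 (SE 0.18, 95% interval -0.67 to 0.11, edgeR adjusted p = 0.303). With a term for Y-linked counts, which rests on DDKO libraries alone, it was -0.72 (edgeR adjusted p = 0.011), and in the 6 libraries without such counts it was also -0.72 (edgeR adjusted p = 0.0051).

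Nr1h2 was lower and Nr1h3 did not pass. Nr1h2 (chr7:44549616-44553951, minus strand) was at 79.0, 82.6, 90.4 and 83.5 CPM in the Smad4-KO replicates and at 64.0, 75.6, 56.5, 57.3 and 66.9 CPM in the DDKO replicates. All 5 libraries lay under the lowest control, replicate 2 by the least. Its log2 fold change was -0.39 (SE 0.10, 95% interval -0.60 to -0.18, edgeR adjusted p = 0.0244), and the call was lost in 7 of 18 alternative settings, with adjusted p up to 0.0859. These were scaling by library size alone, a replicate block, and leaving out Smad4-KO replicate 2 (adjusted p = 0.0543), 3 (0.0859) or 4 (0.0558) or DDKO replicate 3 (0.05) or 4 (0.0595). Nr1h3 (chr2:91184061-91202834, minus strand) was at 12.2, 10.6, 12.8 and 9.11 CPM and at 4.93, 7.03, 9.84, 9.11 and 10.1 CPM. Replicates 1 and 2 of the DDKO group, both with Y-linked counts, were the lowest and the other 3 overlapped with the controls. Replicate 5, which also held Y-linked counts, was the highest of the DDKO group at 10.1 CPM. The log2 fold change of Nr1h3 was -0.45 (SE 0.21, 95% interval -0.92 to 0.02, edgeR adjusted p = 0.182). It was -0.24 with a term for Y-linked counts (edgeR adjusted p = 0.612) and -0.23 in the 6 libraries without them (edgeR adjusted p = 0.375).

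**Figure D2:**
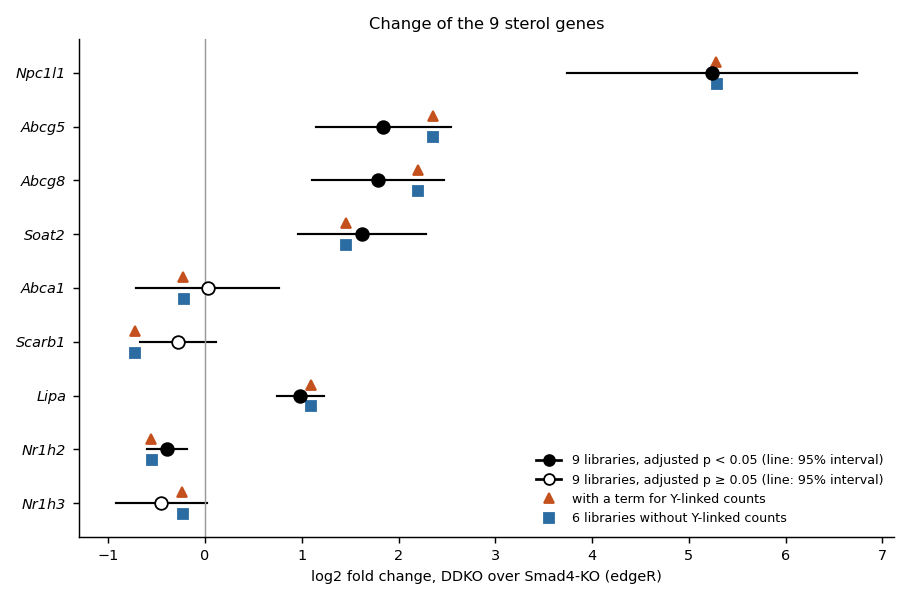
Log2 fold change (x axis) of each of the 9 genes between DDKO and Smad4-KO in edgeR, as circles with 95% intervals over all 9 libraries (filled where the adjusted p was under 0.05), with triangles for the fit with a term for Y-linked counts and squares for the 6 libraries without them. Npc1l1 stands apart at 5.24, Abcg5, Abcg8 and Soat2 lie between 1.62 and 1.84, and Scarb1 moves from -0.28 to -0.72 in both other fits.

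The 5 genes that rose were the same 5 with a term for Y-linked counts, where 8.81% of all tested genes passed and 4.47% were higher, and in the 6 libraries without Y-linked counts, where 19.4% passed and 9.29% were higher. In those 6 libraries the log2 fold change was 5.29 for Npc1l1, 2.36 for Abcg5, 2.20 for Abcg8, 1.46 for Soat2 and 1.10 for Lipa. Nr1h2 and Scarb1 were both lower in either fit, in which 4.33% and 10.1% of all tested genes passed as lower.

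Levels can be compared between genes only per length, so CPM were divided by the kilobases of exon annotated in GENCODE M21. This length joined the exons of all annotated transcripts of a gene, as in Scarb1 with 8500 bases from 11 transcripts. Where the cells make a shorter transcript the level is understated, so the order of the genes depends on the annotation. In the Smad4-KO libraries Nr1h2 was the highest at 25.0 ± 1.42 CPM per kilobase (SD, n = 4), followed by Lipa at 5.26 and Nr1h3 at 4.44, whose ranges overlapped, then Abcg5 at 3.14 and Scarb1 at 2.56, which were apart from their neighbours. Soat2 at 1.58, Abcg8 at 1.3 and Abca1 at 1.09 overlapped in turn, and Npc1l1 was the lowest at 0.086 ± 0.0617 CPM per kilobase. In the DDKO libraries the order was less sharp. Nr1h2 at 19.1, Abcg5 at 11.3 and Lipa at 10.4 CPM per kilobase overlapped in turn, and Lipa stood clear of Soat2 at 4.88. From Soat2 down, through Abcg8 at 4.5, Npc1l1 at 3.47, Nr1h3 at 3.26 and Scarb1 at 2.1 to Abca1 at 1.11, each gene overlapped with the next. On the same scale Soat1 averaged 7.71 and 5.43 and the lysosomal transporter Npc1 4.13 and 3.88 in the Smad4-KO and the DDKO libraries.

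**Figure D3:**
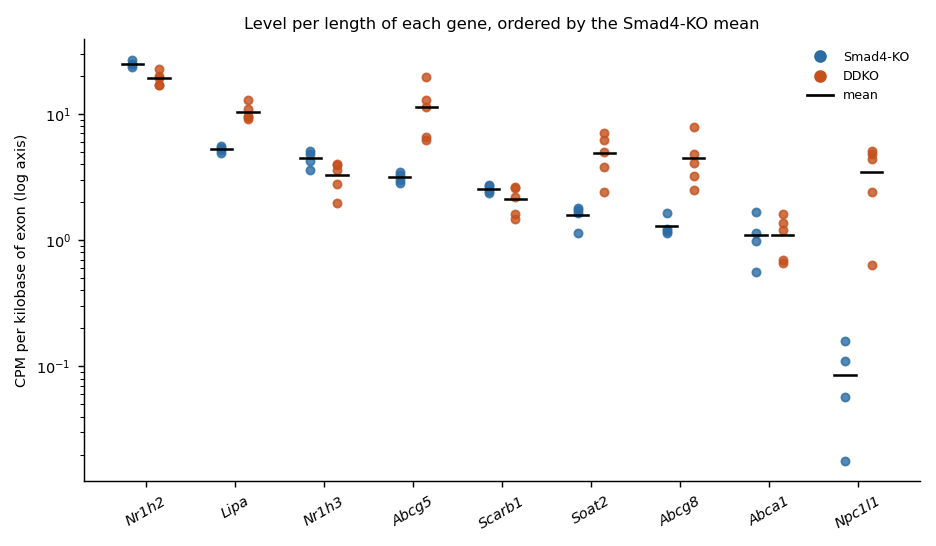
CPM per kilobase of exon (y axis, log scale) of the 9 genes in each Smad4-KO library (blue) and DDKO library (orange), with the mean as a line and genes ordered by the Smad4-KO mean. Npc1l1 moves from a mean of 0.086, under every other gene, to 3.47, within the range of its neighbours.

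Ratios between related genes do not depend on how libraries are scaled, and 3 were tested with a two-sided exact permutation test over the libraries, adjusted over the 3 (the smallest unadjusted p it can give is 0.00794). The log2 ratio of Abcg8 to Abcg5 counts was -0.81 ± 0.35 (SD, n = 4) and -0.84 ± 0.22 (SD, n = 5), and no difference was detected (exact permutation test, difference -0.03, adjusted p = 0.865). For Soat2 to Soat1 the log2 ratio rose from -4.42 ± 0.40 (SD, n = 4) to -2.35 ± 0.99 (SD, n = 5), a difference of 2.08 (exact permutation p = 0.0159, adjusted p = 0.0476). Per Soat1 count there were 0.0323 to 0.059 Soat2 counts in the Smad4-KO libraries, and 0.466, 0.258, 0.144, 0.23 and 0.0741 in the DDKO replicates, so that the groups did not overlap. The adjusted p of this ratio passed narrowly, and was 0.0714 with medians in place of means. For Nr1h3 to Nr1h2 the log2 ratio was -2.92 ± 0.21 (SD, n = 4) and -3 ± 0.52 (SD, n = 5), with no difference detected (exact permutation test, difference -0.08, adjusted p = 0.865).

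**Figure D4:**
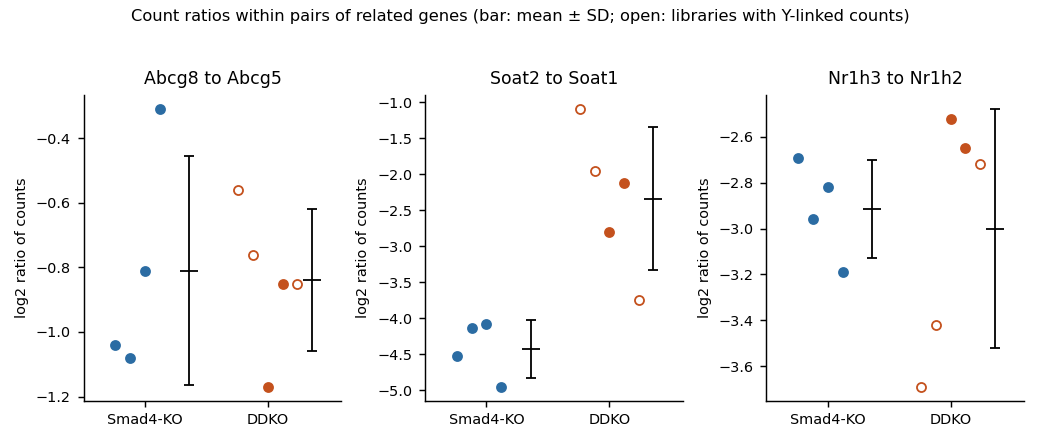
Log2 ratio of the counts of Abcg8 to Abcg5, Soat2 to Soat1 and Nr1h3 to Nr1h2 (y axes, a separate scale per pair) in each library, with mean ± SD as a bar and open dots for libraries with Y-linked counts. The groups separate for Soat2 to Soat1, at means of -4.42 and -2.35, and overlap in the other pairs.

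The genes that work with these 9 were described by lists. Of 13 other LXR target genes, 0 passed the edgeR test, with 0 at an unadjusted p under 0.05 and 0 by DESeq2 or limma-voom, and their median log2 fold change was 0.15. The cholesterol exporter Abcg1 belongs to them, at 5.81 to 8.84 CPM in the Smad4-KO libraries and at 16.8, 17.4, 5.72, 5.65 and 4.34 CPM in the DDKO replicates (edgeR adjusted p = 0.565), with replicates 1 and 2 above and replicates 3, 4 and 5 below every control library. Of the partners and cofactors of LXR, 0 of 6 tested passed in edgeR (2 at an unadjusted p under 0.05, 1 by DESeq2 and 1 by limma-voom). Rxra, the heterodimer partner, averaged 96.1 and 114 CPM without overlap, a log2 fold change of 0.24 (edgeR adjusted p = 0.0587).

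Of the genes that carry Npc1l1 between the surface and recycling endosomes, 0 of 9 passed in edgeR (1 at an unadjusted p under 0.05, 0 by DESeq2 and 1 by limma-voom), with a median of 0.03. Among 10 genes of lipoprotein uptake and lysosomal sterol release, edgeR called 0 higher and 1 lower (5 passed in either direction at an unadjusted p under 0.05, 4 by DESeq2 and 4 by limma-voom). The lower one was Tfeb, the transcription factor of lysosomal genes, at 15.4 and 11.2 CPM (log2 fold change -0.46, edgeR adjusted p = 0.0348). The lysosomal sterol transporters did not pass, Npc1 with 46.7 and 43.9 CPM (edgeR adjusted p = 0.622) and Npc2 with 265 and 188 CPM (edgeR adjusted p = 0.0745). The mRNA of Lipa and of Tfeb moved in opposite directions, and a link between the 2 was not tested. In that list 5 log2 fold changes were above 0 and 5 below, with a median of -0.03. Of 10 genes of sterol transfer between membranes, the sterol-binding protein Stard5 rose from 56.0 to 71.7 CPM (log2 fold change 0.35, edgeR adjusted p = 0.03), and Gramd1a, which moves cholesterol from the plasma membrane to the endoplasmic reticulum, fell from 23.3 to 11.2 CPM (log2 fold change -1.05, edgeR adjusted p = 0.00221).

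Among 9 tested genes of esterification, ester hydrolysis and lipoprotein assembly, edgeR called 2 higher and 0 lower (6 passed in either direction at an unadjusted p under 0.05, 3 by DESeq2 and 3 by limma-voom). Mttp, which loads lipid onto apolipoprotein B, was at 2.37, 5.46, 4.72 and 5.07 CPM in the Smad4-KO replicates and at 115, 123, 91.3, 150 and 30 CPM in the DDKO replicates. As for Npc1l1, replicate 5 was the lowest of its group and above every control, and the log2 fold change was 4.53 (SE 0.45, edgeR adjusted p = 0.000285). Dgat2, a diacylglycerol acyltransferase, rose from 35.9 to 62.5 CPM (log2 fold change 0.80, edgeR adjusted p = 0.0214). Of 7 tested genes among the other ABC lipid exporters, edgeR called 1 (DESeq2 1 and limma-voom 2), Abca7, which was lower at 89.3 and 64.4 CPM (log2 fold change -0.47, edgeR adjusted p = 0.0169).

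Of Srebf2, the regulator of sterol synthesis, and the genes listed with it, edgeR called 0 of 17 higher and 1 lower (8 passed in either direction at an unadjusted p under 0.05, 3 by DESeq2 and 6 by limma-voom). The lower one was Scap, the escort protein of the SREBPs, at 81.7 and 65.6 CPM (log2 fold change -0.32, edgeR adjusted p = 0.047). Srebf2 averaged 268 and 250 CPM (edgeR adjusted p = 0.508), and the median of the list was 0.22. Of 5 tested genes of oxysterol metabolism, the sterol hydroxylase Cyp27a1 fell from 19.3 to 10.7 CPM (log2 fold change -0.85, edgeR adjusted p = 0.0297) and Hsd3b7, which acts further along bile acid synthesis, from 32.8 to 21.9 CPM (log2 fold change -0.58, edgeR adjusted p = 0.017). Among 11 transcription factors of intestinal lipid genes, edgeR called 2, both higher (DESeq2 2 and limma-voom 4 in either direction). Gata4, a factor of the upper small intestine, was low throughout, at 0.159 to 0.32 CPM and 0.497 to 1.96 CPM (log2 fold change 2.20, edgeR adjusted p = 0.0144), and the nuclear receptor Pparg rose from 69.8 to 92.8 CPM (log2 fold change 0.41, edgeR adjusted p = 0.0316).

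**Figure D5:**
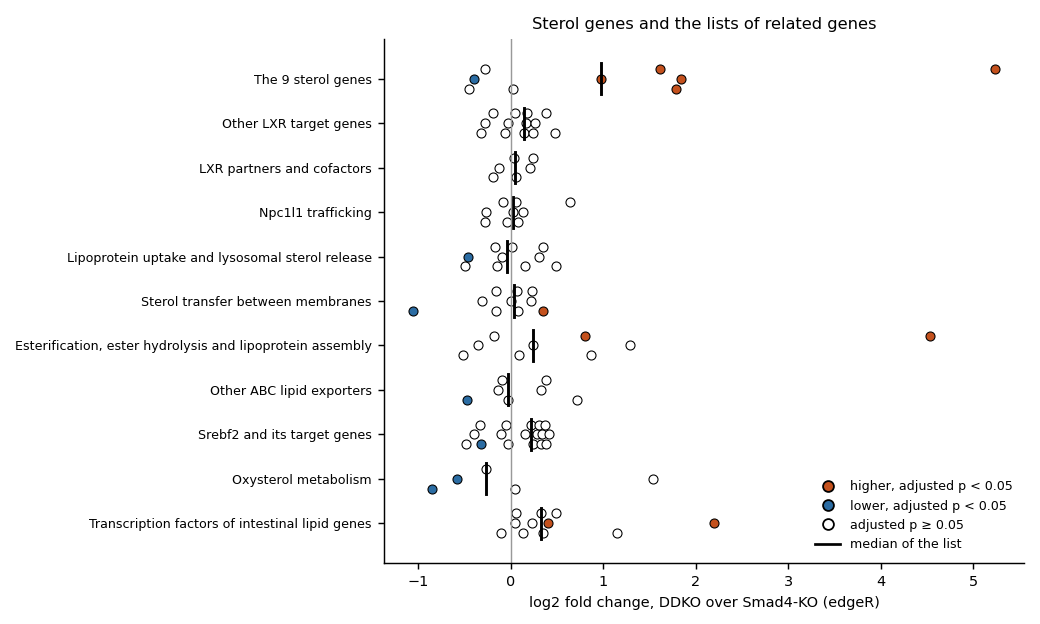
Log2 fold change (x axis) of the 9 genes and of each tested gene of the 10 lists of related genes, in edgeR, with orange for genes that passed as higher, blue for those that passed as lower, open circles for the others, and the list's median as a black line. Npc1l1 at 5.24 and Mttp at 4.53 lie far to the right, and the medians of the 10 lists lie between -0.26 and 0.33.

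Markers of other cells were read in the same libraries. Of 14 tested markers of small-intestinal enterocytes, edgeR called 11 higher and 0 lower (DESeq2 12 and limma-voom 10 in either direction), with a median log2 fold change of 2.56. Their summed level was 424 to 524 CPM in the Smad4-KO libraries and 1180, 1480, 988, 1280 and 718 CPM in the DDKO replicates. Most of the Smad4-KO sum came from Fabp2 and Slc5a1, which did not pass (edgeR adjusted p = 0.72 and 0.0946). Fabp2 averaged 214 and 228 CPM and Slc5a1 189 and 253 CPM in the Smad4-KO and the DDKO group. From highest to lowest these 5 libraries had the same order for this sum as for Npc1l1, the only 1 of the 9 genes with that order, and replicate 5 was the lowest for the sum and for Npc1l1, Abcg5, Abcg8 and Soat2. The part of these markers in the results on the sterol genes was not tested. Lct, Apoa4 and Apoc3 did not pass the filter on counts and were not tested. Lct and Apoc3 held at most 7 counts in any library, whereas Apoa4, an apolipoprotein of chylomicrons, was at 0 in every Smad4-KO library and held 272, 528, 1, 7 and 0 counts in the DDKO replicates, so that its signal came from replicates 1 and 2. Of 6 goblet cell markers, edgeR called 0 higher and 1 lower (2 passed at an unadjusted p under 0.05, 1 by DESeq2 and 1 by limma-voom). The lower one was Muc2, the main secreted mucin, at 6130 and 2000 CPM (edgeR adjusted p = 0.000542). The other 5 did not pass, though all 6 log2 fold changes were below 0, with a median of -0.92. Their sums overlapped, at 10400 to 28900 CPM in the Smad4-KO libraries and 3180 to 11800 CPM in the DDKO libraries.

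Macrophages also express Abca1, Lipa and Nr1h3, and 0 of 7 tested macrophage markers passed in edgeR (0 at an unadjusted p under 0.05, 0 by DESeq2 and 0 by limma-voom). Their sum was 10.3 to 28.5 CPM in the Smad4-KO libraries and 8.9 to 27.9 CPM in the DDKO libraries. Cd163, which was not tested, held 0 counts in every Smad4-KO library and 14, 4, 1, 3 and 2 counts in the DDKO replicates, so that the groups did not overlap. Among other leukocyte markers, 0 of 6 passed in edgeR (0 at an unadjusted p under 0.05, and 0 by either other tool), with sums of 40.8 to 74.3 CPM and 30.8 to 95.1 CPM. Fibroblast markers summed to 10.8 to 25.9 CPM and 18.7 to 57.7 CPM, and 0 of 4 tested passed in edgeR (2 at an unadjusted p under 0.05, 1 by DESeq2 and 0 by limma-voom). Endothelial markers summed to 1.35 to 2.73 CPM and 1.7 to 3.45 CPM and smooth muscle markers to at most 2.76 CPM, with 1 and 0 of them tested and 0 passed (0 at an unadjusted p under 0.05, and 0 by either other tool).

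Within genotypes, the deviations of log2 CPM from the group means were compared over the 9 libraries as a description, since the points share libraries, depth and cell make-up. Npc1l1 moved most with Soat2 among the 9 genes (Pearson r = 0.88, Spearman rho = 0.53). Abcg5 moved most with Abcg8 (r = 0.85, rho = 0.63) and least with Scarb1 (r = -0.75). Abcg8 and Lipa were most alike at r = 0.89 (rho = 0.83), and Scarb1 and Nr1h2 at 0.74 (rho = 0.72). Among all 13677 tested genes that averaged 1 CPM or more, the gene most like Abcg5 was Sc5d, a desaturase of sterol synthesis (r = 0.98, rho = 0.93), followed by Pde8b (r = 0.96), P2ry1 (r = 0.94), Dpyd (r = 0.94) and Snx20 (r = 0.93). Sc5d itself averaged 117 and 133 CPM (edgeR adjusted p = 0.257). The genes most like Npc1l1 were Rpl30-ps10 (r = 0.94, rho = 0.83), Lonrf1 (r = 0.93, rho = 0.9), Gm13331 (r = 0.92, rho = 0.6), Chga (r = 0.92, rho = 0.92) and Gm3756 (r = 0.92, rho = 0.73). Of these, Chga, the enteroendocrine granule protein, was higher, at 14.4 and 52.7 CPM (log2 fold change 1.87, edgeR adjusted p = 0.000405). Npc1l1 held only 1 to 12 counts in the Smad4-KO libraries, so its deviations there carry much counting noise. For Abcg5 and Npc1l1 alike, picking the highest of 13677 genes over 9 libraries yields high values of r by itself.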

How the data were processed

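For 9 libraries, the authors deposited raw read counts by gene symbol, as whole numbers. The submitters' processing notes name HISAT2 2.0 and mm10, and the counting program, annotation and strand setting are not given in the sources used here. Reads could be split between overlapping genes or near-identical copies. Groups came from the labels, and the doses, days and age from the study's methods. The labels do not say that each library is 1 mouse, so p-values measure the spread between libraries. All pairs within a genotype differed beyond sampling noise (chi-square of at least 9.22 per gene over 16 pairs). In R 4.3.3, genes passing filterByExpr by genotype (14593) were normalized with TMM and tested with edgeR 4.0.16 (quasi-likelihood, no covariates, Benjamini-Hochberg over all genes tested), with an adjusted p of 0.05 as the threshold. DESeq2 1.42.0 and limma 3.58.1 (voom with quality weights) were alternatives. Library totals held all 46095 symbols, 27 of which read as dates. Count ratios used a pseudocount of 0.5 and an exact permutation test. A library's counts were worth 0.0593 to 0.0793 CPM each. The code was tested on simulated data. The 9 genes, the lists and the tests were chosen with earlier results of these data known. Genes were named by rule: the 9, Setd2 and Smad4, the paralogs and partners Soat1, Abcg1, Npc1, Npc2, Rxra and Srebf2, genes that passed in each list (at most 6), and the 5 most like Npc1l1 and Abcg5. Cell type markers named singly were chosen after their values were seen, and part of the colonic marker list is not reported here. The alternatives were other normalizations, filters and tools, a replicate block, a term for Y-linked counts or the 6 libraries without them, and leaving out each library.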

Additional observations from a re-analysis of the deposited data

Results flagged for a closer look

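Among 24 sets of values from 1 genotype that were checked for a library far from the rest, 1 stood out, about what chance gives at 1 in 20. Abcg8 in replicate 4 of the Smad4-KO group was at 6.18 CPM, against 4.29, 4.45 and 4.6 CPM in the other 3 libraries. The gap to the nearest of them was 0.838 of the group's range. Abcg5 in the same library was the lowest of its group, at 7.69 CPM, so that the ratio of Abcg8 to Abcg5 counts was 0.805 there and 0.473 to 0.57 in the other 3.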

How the results depend on the processing

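Npc1l1, Abcg5, Abcg8, Soat2 and Lipa were higher and past the threshold in every alternative in which they were tested, with log2 fold changes of 4.95 to 5.70, 1.57 to 2.36, 1.51 to 2.20, 1.44 to 1.80 and 0.91 to 1.10. Npc1l1 has no value with at least 10 counts in every library. Nr1h2 lost its call with library size alone (-0.35, edgeR adjusted p = 0.0537) and without Smad4-KO replicate 2, 3 or 4 or DDKO replicate 3 or 4 (-0.45 to -0.34 over all libraries left out). Scarb1 passed with limma-voom (-0.48, adjusted p = 0.0443), with a term for Y-linked counts (-0.72) and without the libraries that held them (-0.72). The number of the 9 genes called lower was 2 in those 3 fits, 0 with library size alone and 0 to 1 with a library left out. Abca1 turned to -0.23 with the Y-linked term and -0.22 without those libraries, and ranged from -0.20 to 0.30 with a library left out, below 0 without Smad4-KO replicate 1 or 2 or DDKO replicate 1 or 2. No Abca1 value was called. Over all genes 1941 passed, against 2792 with DESeq2 (1461 higher), 2924 with limma-voom, 1285 with the Y-linked term, 2930 in the 6 libraries without Y-linked counts (1406 higher) and 847 to 2696 with a library left out, lowest without Smad4-KO replicate 3 and highest without DDKO replicate 5. The counts were also over 1.5 times lower without Smad4-KO replicate 1 (1018), 2 (1204) or 4 (1183) or DDKO replicate 4 (1273). Fewer libraries were fitted there. The cause of the other shifts was not tested.

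For the ratios, medians gave 0.07 for Abcg8 to Abcg5, 0.17 for Nr1h3 to Nr1h2 and 2.21 for Soat2 to Soat1 (exact permutation, adjusted p = 0.0714). The 6 libraries without Y-linked counts gave -0.20 for Abcg8 to Abcg5 (exact permutation, adjusted p = 0.533). They gave 0.33 for Nr1h3 to Nr1h2 and 1.96 for Soat2 to Soat1 (exact permutation, adjusted p = 0.2 for each, where the smallest possible unadjusted p is 0.0667). With a library left out the ranges were -0.12 to 0.14 for Abcg8 to Abcg5, -0.20 to 0.09 for Nr1h3 to Nr1h2 and 1.77 to 2.43 for Soat2 to Soat1 (exact permutation, adjusted p = 0.0857 to 0.107). With the other 2 ratios far from significance, the smallest adjusted p possible there was 0.0536 without a Smad4-KO library and 0.0857 without a DDKO library, so these values do not show a loss of the call. Genes passing in the lists of related genes numbered 1 in edgeR, 4 in DESeq2 and 4 in limma-voom for lipoprotein uptake, 1, 3 and 6 for Srebf2 and its targets, 2, 2 and 5 for sterol transfer, 1, 1 and 2 for the other ABC exporters and 2, 2 and 4 for the transcription factors.

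The groups share replicate numbers, but same-numbered libraries did not deviate together (r = -0.10 to 0.09) and none was closest to its own number, so the numbers do not pair them. With the replicate block 1618 genes passed, 5 of the 9 genes were higher and 0 lower, Nr1h2 was at -0.41 (edgeR adjusted p = 0.0616), and Soat2 to Soat1 was 2.43 (exact sign-flip permutation, adjusted p = 0.375, where the smallest possible unadjusted p is 0.125).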
